A study of Homo sapiens with 6 samples.

Results

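RING1, RNF2 and 8 of the subunits that join them in polycomb repressive complex 1 (PRC1) are described here from RNA-seq of human embryonic stem cells (hESCs) and of the neuromesodermal progenitor-like (NMP-L) cells made from them. The genes were chosen by symbol and not by a threshold on their values, although earlier results of these data were known. They are RING1, RNF2, PCGF1, PCGF2, PCGF3, BMI1 (also called PCGF4), PCGF5, PCGF6, RYBP and KDM2B. All 10 were among the 27672 genes listed in the deposited table, and all 10 were among the 15517 genes that passed the filter on low counts and were tested. In the NMP-L cells BMI1 and PCGF5 transcripts were about 3 times as high as in hESCs, PCGF1 rose less and RYBP by the smallest amount, whereas KDM2B and PCGF3 fell, each with libraries scaled by TMM. The transcripts of the catalytic subunits, RING1 and RNF2, and of PCGF2 and PCGF6 did not pass the test.

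The libraries came from H9 cells, an established hESC line, with 3 replicates of undifferentiated cells (day 0) and 3 of NMP-L cells (day 3), which the labels call biological replicates. Per the labels, hESCs were feeder-free on fibronectin in DEF medium, with bFGF at 30 ng/ml and the BMP inhibitor Noggin at 10 ng/ml. The NMP-L cells were differentiated in an N2/B27-containing basal medium (given as Neurobasal for the NMP-L libraries) to which CHIR99021, an activator of Wnt signalling, was added at 3 µM. This step lasted 3 days, with bFGF lowered to 20 ng/ml. The study's Methods differ from the labels here, since they describe TESR medium on Geltrex for hESCs and add inhibitors of BMP and TGFβ signalling around the end of NMP-L differentiation. Both conditions thus differ in medium as well as in cell state, and all libraries come from 1 cell line. The labels do not say whether the replicates were separate cultures, so the p-values measure the spread between these samples.

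PRC1 places ubiquitin on a lysine of the tail of histone H2A. The ubiquitin ligase is RING1 (RING1A) or RNF2 (RING1B), which pairs with 1 PCGF protein, and the PCGF protein decides which other subunits can join. PCGF2 and BMI1 form canonical PRC1 with CBX and PHC proteins, which bind the H3K27me3 mark and compact chromatin, whereas the variant complexes contain RYBP or its paralogue YAF2 in place of a CBX protein. PCGF1 complexes contain KDM2B, whose CXXC domain binds unmethylated CpG dinucleotides and so brings PRC1 to CpG islands. PCGF3 and PCGF5 complexes can contain AUTS2 and casein kinase 2, and the PCGF6 complex contains MGA, MAX, E2F6 and L3MBTL2. In pluripotent stem cells these complexes hold developmental genes silent.

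The expected counts of the 6 libraries summed to between 19454543 and 19744142 in hESCs and between 20687062 and 23036426 in NMP-L cells. The labels were checked against marker genes. Of 5 pluripotency markers 4 fell (LIN28A did not pass), with a summed TPM (a level that allows for transcript length and library depth) of 5390 to 5753 in hESCs and 3762 to 3935 in NMP-L cells. Of 6 NMP markers 5 rose and FGF17 fell, and T (TBXT) and CDX2 had at most 2 counts in any hESC library. Markers of other lineages were also detected. Of the endoderm markers FOXA2 rose, to 19.04, 11.26 and 21.29 TPM in the NMP-L libraries. SOX17 was at or under 3 counts in every library. GATA4 (7, 8 and 15 counts in hESCs, 5, 10 and 2 in NMP-L cells) and GATA6 (3, 1 and 2, then 7, 6 and 3) were too low to be tested. Of the neural markers SOX1 rose while PAX6 was at or under 3 counts in every NMP-L library. Of the neural crest markers SOX10 and FOXD3 fell, and TFAP2A (1, 3 and 0, then 1, 2 and 4) was too low to be tested. Of the early mesoderm markers, TBX6 fell and MESP2 did not pass. MSGN1 (0, 0 and 0 counts in hESCs, 7, 4 and 2 in NMP-L cells) and MESP1 (1, 0 and 4, then 6, 8 and 5) were higher but too low to be tested. The summed TPM of the early mesoderm markers, most of it from TBX6, was 6.19 to 8.13 in hESCs and 4.41 to 5.63 in NMP-L cells. This sum was lower without overlap, although not every marker in it fell. How far such cells contribute to the values below was not tested, and in bulk samples fewer cells of a type and less RNA per cell cannot be told apart.

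Across the table, 55.8% of the genes tested passed an adjusted p of 0.05 in edgeR's quasi-likelihood test (Benjamini-Hochberg adjustment over all genes tested), against 6 of the 10 PRC1 genes. Higher in NMP-L cells were 29.1% of all genes tested and 4 of the 10 (BMI1, PCGF5, PCGF1 and RYBP), and lower were 26.7% of all genes and 2 of the 10 (KDM2B and PCGF3). A change of at least 2-fold past the same threshold was found for 18.6% of all genes and for BMI1 and PCGF5. The depth-scaled counts (CPM) of the 2 conditions did not overlap for 61.6% of all genes and for 6 of the 10. These shares lie near the background, so the number of PRC1 genes that passed is no result about the group. The split depended on the scaling, with 7 genes higher and 0 lower relative to GAPDH, and 2 higher and 4 lower relative to HPRT1. The median log2 fold change of all genes tested was itself 0.59 relative to GAPDH and -0.27 relative to HPRT1. The shares above are those of TMM scaling, so these splits are no result about the group either. The median log2 fold change was 0.09 over the 10 genes and 0.03 over all genes tested, and the median of its absolute size was 0.46 and 0.40. All folds below are NMP-L over hESC from edgeR, scaled by TMM, with SE. The plot of log2 fold changes shows that the 10 genes did not move together.

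**Figure D1:**
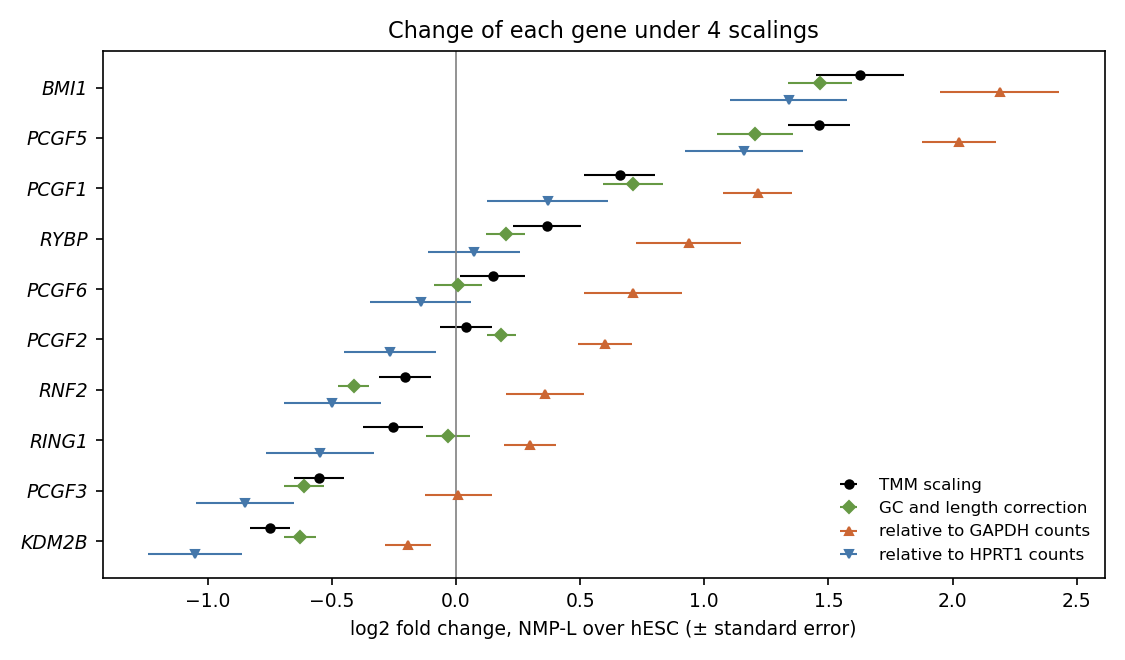
Log2 fold change (NMP-L over hESC) of each of the 10 genes under TMM scaling, with a GC and length correction, and relative to GAPDH or HPRT1 counts, each with its SE. BMI1 and PCGF5 lie above 1 under every treatment, and the genes near 0 cross it when counts are taken relative to GAPDH or HPRT1.

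The promoters of the 5 genes with the largest changes past the threshold are shown first, because KDM2B, itself one of the 2 genes that fell, recognises CpG dinucleotides. Each sequence is the RefSeq window of 300 bases (250 before and 50 after a start site, GRCh38.p14), 5′ to 3′ on the gene's strand, with every CG in capitals. Where a gene has several windows, the window with the most CG is given. The first 3 belong to genes that rose, in the order BMI1 (chr10:22321706-22322005, plus strand), PCGF5 (chr10:91162762-91163061, plus strand) and PCGF1 (chr2:74507646-74507945, minus strand). The last 2 belong to genes that fell, KDM2B (chr12:121467329-121467628, minus strand) and PCGF3 (chr4:705582-705881, plus strand).
BMI1: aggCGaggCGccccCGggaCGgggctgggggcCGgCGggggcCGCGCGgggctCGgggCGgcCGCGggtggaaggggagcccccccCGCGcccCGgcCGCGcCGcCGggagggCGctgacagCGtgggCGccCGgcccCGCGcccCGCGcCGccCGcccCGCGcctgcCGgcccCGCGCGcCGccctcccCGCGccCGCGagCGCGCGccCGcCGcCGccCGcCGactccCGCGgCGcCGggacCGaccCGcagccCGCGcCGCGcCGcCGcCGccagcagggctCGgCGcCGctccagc
PCGF5: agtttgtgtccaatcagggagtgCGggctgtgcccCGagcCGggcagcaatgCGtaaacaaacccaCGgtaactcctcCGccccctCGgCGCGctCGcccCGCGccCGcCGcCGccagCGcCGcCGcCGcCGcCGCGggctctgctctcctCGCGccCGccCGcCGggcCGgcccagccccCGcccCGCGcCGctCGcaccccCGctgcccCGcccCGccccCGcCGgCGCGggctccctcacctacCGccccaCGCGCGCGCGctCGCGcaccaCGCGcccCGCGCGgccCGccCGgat
PCGF1: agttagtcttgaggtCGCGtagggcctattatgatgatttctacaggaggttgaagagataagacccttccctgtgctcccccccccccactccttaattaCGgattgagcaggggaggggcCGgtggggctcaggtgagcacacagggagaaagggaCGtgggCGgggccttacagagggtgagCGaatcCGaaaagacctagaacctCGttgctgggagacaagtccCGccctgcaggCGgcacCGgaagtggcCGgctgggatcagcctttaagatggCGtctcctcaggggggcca
KDM2B: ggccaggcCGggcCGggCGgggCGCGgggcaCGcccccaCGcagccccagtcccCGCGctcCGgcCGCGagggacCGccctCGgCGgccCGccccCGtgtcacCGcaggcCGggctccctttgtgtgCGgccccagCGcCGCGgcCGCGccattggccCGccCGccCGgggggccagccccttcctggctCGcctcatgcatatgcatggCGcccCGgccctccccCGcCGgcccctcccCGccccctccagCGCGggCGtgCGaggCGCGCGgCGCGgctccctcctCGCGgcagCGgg
PCGF3: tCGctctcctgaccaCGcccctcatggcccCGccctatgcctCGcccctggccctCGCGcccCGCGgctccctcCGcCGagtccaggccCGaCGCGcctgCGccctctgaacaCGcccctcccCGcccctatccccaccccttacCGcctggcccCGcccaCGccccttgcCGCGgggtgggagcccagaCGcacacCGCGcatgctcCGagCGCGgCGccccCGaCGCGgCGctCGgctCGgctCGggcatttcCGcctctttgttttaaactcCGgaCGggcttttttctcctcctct

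The 10 genes had 17 such windows in all (4 each for PCGF5 and KDM2B, 2 for BMI1 and 1 for each other gene). The median over 35116 human promoter windows was 14 CG. The windows shown held 65 CG (BMI1), 55 (PCGF5), 14 (PCGF1), 46 (KDM2B) and 38 (PCGF3). They were picked as the most CG-rich of each gene, whereas the median is over all windows. In them the CG counts of the genes that rose and of those that fell overlapped in range. Of the genes that did not pass the test, RING1 and RNF2 had 41 CG each, PCGF6 had 28 and PCGF2 had 2. RYBP had 20 CG. The other window of BMI1 held 36 CG, those of PCGF5 52, 35 and 5 and those of KDM2B 33, 15 and 15. For BMI1 and KDM2B the window shown lies downstream of the gene's other windows. The data do not tell which start sites were used. Both strands were searched for 3 short motifs. The TCF/LEF core CTTTGA was found in 2 of the 17 windows, 1 of PCGF5 and 1 of KDM2B, neither of them shown, and in 12.9% of all promoter windows. The E-box CACGTG, bound by MAX, was found in the BMI1 window not shown and in 7.26% of all windows. The E2F core GGCGGGAA was found in the RNF2 window and in 3.16% of all windows. These are matches of letters and not measured binding sites.

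RING1 and RNF2, the catalytic subunits, did not pass the test, and their balance overlapped between the conditions. RNF2 (chromosome 1, 185014658 to 185071735, GRCh37) had 29.74, 23.43 and 24.93 TPM in hESC replicates 1 to 3 and 21.91, 23.76 and 26.85 TPM in NMP-L replicates 1 to 3. The ranges overlapped, and the means were 26.0 ± 3.3 (SD, n = 3) and 24.2 ± 2.5 TPM. The log2 fold change was -0.20 ± 0.10 (edgeR adjusted p = 0.12). RING1 (chromosome 6, 33176277 to 33180499) had 17.45, 18.12 and 18.23 TPM in hESCs and 17.46, 15.97 and 14.78 TPM in NMP-L cells. Its TPM ranges met at a single pair of libraries, while its CPM ranges did not overlap, and the log2 fold change was -0.25 ± 0.12 (edgeR adjusted p = 0.090). The direction of both depended on the scaling, with log2 fold changes of 0.36 (RNF2, edgeR adjusted p = 0.065) and 0.30 (RING1, past the threshold with edgeR adjusted p = 0.028) relative to GAPDH and of -0.50 and -0.55, both past the threshold, relative to HPRT1. A p that misses the threshold does not show that these levels were equal.

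RNF2 made up 59.1 ± 3.50% (SD, n = 3) of the summed RING1 and RNF2 TPM in hESCs and 60.0 ± 4.43% in NMP-L cells. The ranges, 56.4% to 63.0% and 55.7% to 64.5%, overlapped (exact permutation test over libraries, two-sided, p = 0.8). RNF2 transcripts were thus the more abundant in each of the 6 libraries. Relative to each other the paralogues showed a log2 ratio of 0.53 ± 0.21 in hESCs and 0.59 ± 0.27 in NMP-L cells. RNF2 has a low GC content in its longest annotated transcript (36.0%, against a median of 48.4% over 15094 genes tested), and RING1 a high one (61.6%). When counts were corrected for GC content and transcript length within each library, RNF2 passed the threshold with a log2 fold change of -0.41 ± 0.06 (edgeR adjusted p = 1.4e-04), whereas RING1 had -0.03 ± 0.09 (edgeR adjusted p = 0.78).

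Of the PCGF genes of canonical PRC1, BMI1 rose from the lowest level of the 10 genes, while PCGF2 remained the more abundant by far. BMI1 (chromosome 10, 22610028 to 22620413) had 3.42, 2.01 and 2.44 TPM in hESCs and 7.44, 8.37 and 10.19 TPM in NMP-L cells. Every NMP-L library lay above every hESC library, with expected counts of 105.52, 67 and 78 in hESCs and 264.99, 281 and 367 in NMP-L cells. This was a log2 fold change of 1.63 ± 0.18 or 3.09-fold (edgeR adjusted p = 1.4e-05), and it ranged from 1.34 to 2.19 over the 18 alternatives that were tried.

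PCGF2 (chromosome 17, 36890151 to 36906070), also called MEL18, had 56.84, 69.02 and 68.56 TPM in hESCs and 76.84, 66.47 and 70.81 TPM in NMP-L cells. The ranges overlapped and the log2 fold change was 0.04 ± 0.10 (edgeR adjusted p = 0.76), which became 0.18 ± 0.06 and past the threshold with the GC and length correction (edgeR adjusted p = 0.017). It was 0.60 relative to GAPDH, also past the threshold (edgeR adjusted p = 0.0010), and -0.27 relative to HPRT1 (edgeR adjusted p = 0.23). PCGF2 shares 1703 exon bases with CISD3 on the opposite strand, and the strand setting of the counting is not given in the sources used here, so reads of these genes may not be separated. The count of CISD3 was 80 to 118 in hESCs and 83 to 113 in NMP-L cells. BMI1 made up 3.98 ± 1.5% (SD, n = 3) of the summed PCGF2 and BMI1 TPM in hESCs and 10.9 ± 1.9% in NMP-L cells, a measure chosen after the values were seen. The log2 ratio of BMI1 to PCGF2 moved from -4.66 ± 0.54 to -3.05 ± 0.29, a 3.04-fold higher ratio with no overlap (exact permutation test, two-sided, p = 0.1). No smaller p is possible with 3 libraries against 3, so no share or ratio here can pass 0.05.

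BMI1 lies 792 bases downstream of COMMD3, a gene of endosomal cargo sorting, and an annotated readthrough transcript, COMMD3-BMI1, shares 1000 exon bases with BMI1. COMMD3 rose as well, from 31.93, 49 and 34 expected counts in hESCs to 173, 170 and 174 in NMP-L cells, a log2 fold change of 1.94 ± 0.18 (edgeR adjusted p = 3.2e-06). The readthrough gene was given 1.55, 0 and 0 counts in hESCs and 29.02, 0 and 0 in NMP-L cells. BMI1 was the only one of the 10 genes with counts that were not whole, which arise where RSEM divides a read between genes. Adding the readthrough TPM to BMI1 gave a BMI1 share of 2.18% and 5.78% of the summed PCGF TPM, against 2.17% and 5.62% without it.

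PCGF1, the PCGF subunit of the KDM2B and BCOR complex, rose, while KDM2B fell. PCGF1 (chromosome 2, 74732170 to 74734822) had 11.35, 12.75 and 11.47 TPM in hESCs and 22.11, 18.16 and 19.91 TPM in NMP-L cells. The ranges did not overlap, although the counts behind them were modest (85, 103 and 89 in hESCs and 191, 148 and 174 in NMP-L cells). The log2 fold change was 0.66 ± 0.14 or 1.58-fold (edgeR adjusted p = 0.0021). PCGF1 shares 49 exon bases with the opposite-strand LBX2-AS1, which had 8 to 13 counts in hESCs and 50 to 57 in NMP-L cells. The change of PCGF1 was lost with counts taken relative to HPRT1 (0.37, edgeR adjusted p = 0.21).

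KDM2B (chromosome 12, 121866899 to 122018928) had the highest level of the 10 genes in hESCs. Its TPM was 101.33, 88.85 and 105.97 in hESCs and 63.98, 62.50 and 61.79 in NMP-L cells. All 3 NMP-L libraries lay close together and below the lowest hESC library, and KDM2B fell by 0.75 ± 0.08 on the log2 scale or 1.68-fold (edgeR adjusted p = 1.4e-05). Relative to GAPDH, which itself fell by 0.55 on the log2 scale, the value was -0.19 and did not pass (edgeR adjusted p = 0.087). KDM2B shares 439 exon bases with RNF34 on the opposite strand, for which the log2 fold change was -0.26 (edgeR adjusted p = 0.028). The KDM2B annotation holds 18 transcripts, and a gene total does not tell whether those with the demethylase domain and those without it moved alike.

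KDM2B and PCGF1 moved in opposite directions within every pair of libraries from the 2 conditions. The log2 ratio of KDM2B to PCGF1 TPM was 3.16, 2.80 and 3.21 in hESCs and 1.53, 1.78 and 1.63 in NMP-L cells, a 2.65-fold lower ratio without overlap (exact permutation test, two-sided, p = 0.1). KDM2A, the paralogue of KDM2B that carries a CXXC domain as well, fell by 0.49 on the log2 scale (edgeR adjusted p = 2.7e-04), but had a value of 0.07 relative to GAPDH. KDM2B TPM was 2.55 ± 0.14 times that of KDM2A in hESCs and 2.15 ± 0.12 times in NMP-L cells. BCOR, a scaffold of the PCGF1 complex, fell by 0.26 (edgeR adjusted p = 0.021), with a range of -0.56 to 0.29 over the alternatives.

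**Figure D2:**
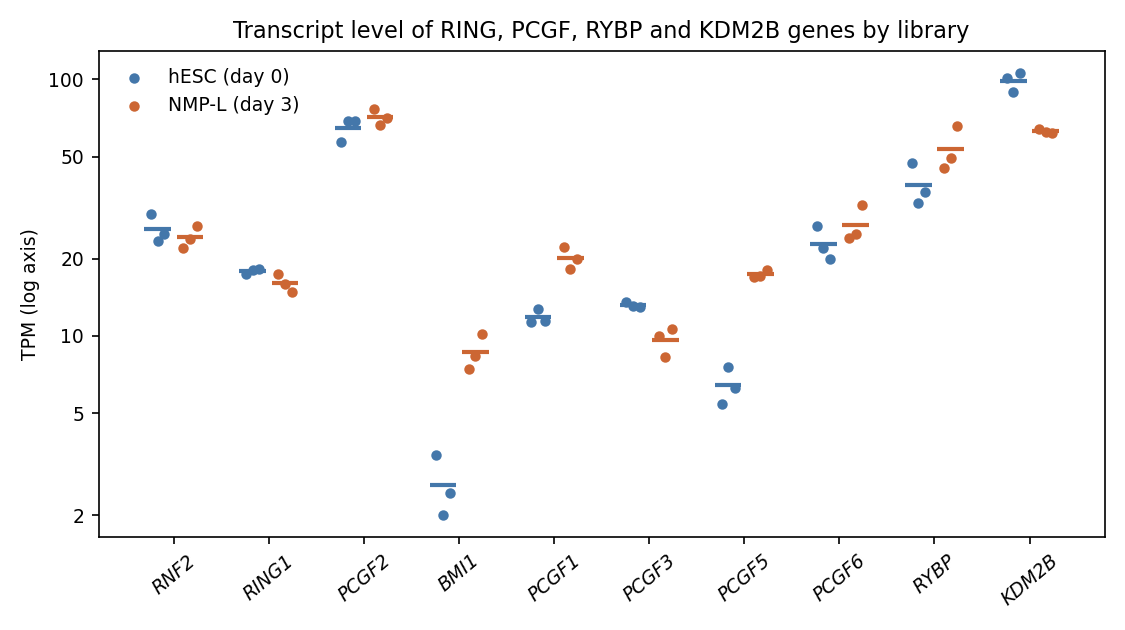
TPM of each of the 10 genes in the 3 hESC and 3 NMP-L libraries on a log axis, with points for libraries and lines for means. The 2 conditions are fully separated for BMI1, PCGF5, PCGF1, PCGF3 and KDM2B, and overlap for RNF2, RING1, PCGF2, PCGF6 and RYBP.

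PCGF3 and PCGF5, paralogues that form complexes of the same kind, changed in opposite directions. PCGF5 (chromosome 10, 92922769 to 93044094) had 5.44, 7.58 and 6.24 TPM in hESCs and 17.02, 17.16 and 18.11 TPM in NMP-L cells. The expected counts were 79, 88 and 86 in hESCs and 251, 265 and 302 in NMP-L cells, so that the lowest NMP-L library was far above the highest hESC library. The log2 fold change was 1.46 ± 0.12 or 2.76-fold (edgeR adjusted p = 1.9e-06), with a range of 1.16 to 2.03 over 18 alternatives.

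PCGF3 (chromosome 4, 699537 to 763877) had 13.57, 13.07 and 12.92 TPM in hESCs and 9.95, 8.29 and 10.65 TPM in NMP-L cells. Each NMP-L library was below each hESC library, and PCGF3 fell by 0.55 ± 0.10 on the log2 scale or 1.47-fold (edgeR adjusted p = 6.6e-04). Relative to GAPDH this value was 0.01. PCGF3 had 2.05 times the TPM of PCGF5 in hESCs, and PCGF5 had 1.81 times that of PCGF3 in NMP-L cells. PCGF5 made up 28.6% to 36.7% of their sum in hESCs and 63.0% to 67.4% in NMP-L cells, a description chosen after the values were seen. Their summed TPM was 19.6 ± 0.91 (SD, n = 3) in hESCs and 27.1 ± 1.66 in NMP-L cells.

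The TPM of PCGF5 carries an uncertainty of its own. The log2 ratio of count to TPM reflects the transcript length that RSEM assigned to a gene. Taken relative to the median gene of each library, it was nearly the same in all 6 libraries for the other 9 genes. For PCGF5 it was -0.91, -1.34 and -1.03 in hESCs and -1.09, -0.94 and -0.93 in NMP-L cells. The spread was thus largest among hESC libraries, and the 2 conditions overlapped. The difference of 0.11 between the condition means was larger in size than that of 98.1% of 12725 genes compared. These genes had 20 counts or more and a minimum TPM in each library. The edgeR values rest on counts and do not use this length. For the median gene the log2 ratio of TPM exceeded the TMM-scaled fold change by 0.10, but for PCGF5 the TPM ratio was the lower of these values (1.44 against 1.46).

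PCGF6, a subunit of the germline-gene-silencing complex with MGA and E2F6, did not pass the test. PCGF6 (chromosome 10, 105062553 to 105110901) had 26.72, 21.97 and 19.84 TPM in hESCs and 24.15, 24.86 and 32.46 TPM in NMP-L cells. The ranges overlapped and the log2 fold change was 0.15 ± 0.13 (edgeR adjusted p = 0.36), or 0.71 relative to GAPDH, past the threshold (edgeR adjusted p = 0.0097), and -0.14 relative to HPRT1 (edgeR adjusted p = 0.60). Of its partners, MAX and E2F6 rose by 1.22-fold and 1.23-fold (edgeR adjusted p = 0.025 and 0.026), whereas MGA and L3MBTL2 had folds of 1.00 and 0.892 and did not pass. Relative to HPRT1 neither MAX nor E2F6 was called higher.

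RYBP, which stimulates the ligase and takes the place of the CBX proteins in variant PRC1, rose, but its call depended on single libraries. RYBP (chromosome 3, 72420976 to 72495772) had 46.96, 32.81 and 36.48 TPM in hESCs and 45.29, 49.51 and 65.93 TPM in NMP-L cells. The highest hESC library lay above the lowest NMP-L library, and the NMP-L libraries were widely spread. The log2 fold change was 0.37 ± 0.14 or 1.29-fold (edgeR adjusted p = 0.038). The change no longer passed without hESC replicate 2 (0.28, adjusted p = 0.16), hESC replicate 3 (0.32, adjusted p = 0.16), NMP-L replicate 2 (0.41, adjusted p = 0.061) or NMP-L replicate 3 (0.23, adjusted p = 0.17), all in edgeR. Relative to HPRT1 it was 0.07 (edgeR adjusted p = 0.78).

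YAF2, the paralogue of RYBP, was close to the detection floor in hESCs (4, 6 and 3 counts) and rose to 81, 77 and 137 counts in NMP-L cells. The log2 fold change was 4.23 ± 0.34 (edgeR adjusted p = 1.2e-06). YAF2 made up 0.285 ± 0.12% (SD, n = 3) of the summed RYBP and YAF2 TPM in hESCs and 3.91 ± 0.46% in NMP-L cells, so that RYBP transcripts dominated in every library. The log2 ratio of RYBP to YAF2 TPM moved from 8.53 ± 0.57 to 4.63 ± 0.17 without overlap (exact permutation test, two-sided, p = 0.1). The difference of -3.90 rests on the few hESC counts and was -1.06 with 1 TPM added to both genes.

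The composition of the PCGF family shifted within a total TPM that was higher in NMP-L cells. The summed TPM of the 6 PCGF genes was 117, 126 and 121 in hESCs and 158, 143 and 162 in NMP-L cells, without overlap. The size of this difference depends on the scaling. Mean TPM was 72.2 and 94.1 for HPRT1 and 7346 and 5348 for GAPDH, so relative to HPRT1 the total need not be higher. PCGF2 held the largest share in each library, with 53.2 ± 4.19% (SD, n = 3) in hESCs and 46.3 ± 2.56% in NMP-L cells, and the ranges overlapped (exact permutation test, two-sided, p = 0.2). PCGF6 held 18.8 ± 3.45% and 17.6 ± 2.35% (exact permutation p = 0.6). No other PCGF gene had overlapping shares.

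The share of PCGF5 was 5.26 ± 0.69% in hESCs and 11.3 ± 0.60% in NMP-L cells. PCGF1 held 9.73 ± 0.33% and 13.0 ± 0.92%. BMI1 held 2.17 ± 0.68% and 5.62 ± 0.80%. These shares were higher in all 3 NMP-L libraries than in any hESC library, whereas that of PCGF3 was lower, with 10.8 ± 0.64% and 6.22 ± 0.40%. Each of these differences had an exact permutation p of 0.1, the smallest possible, or 0.15 after Benjamini-Hochberg adjustment over the 6 PCGF genes. Shares in 1 library sum to 100%, so they are not independent of each other. The genes of canonical PRC1, PCGF2 and BMI1, together held 55.3 ± 3.63% and 51.9 ± 1.80%, which overlapped, and PCGF3 with PCGF5 held 16.1 ± 0.29% and 17.5 ± 0.36%.

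**Figure D3:**
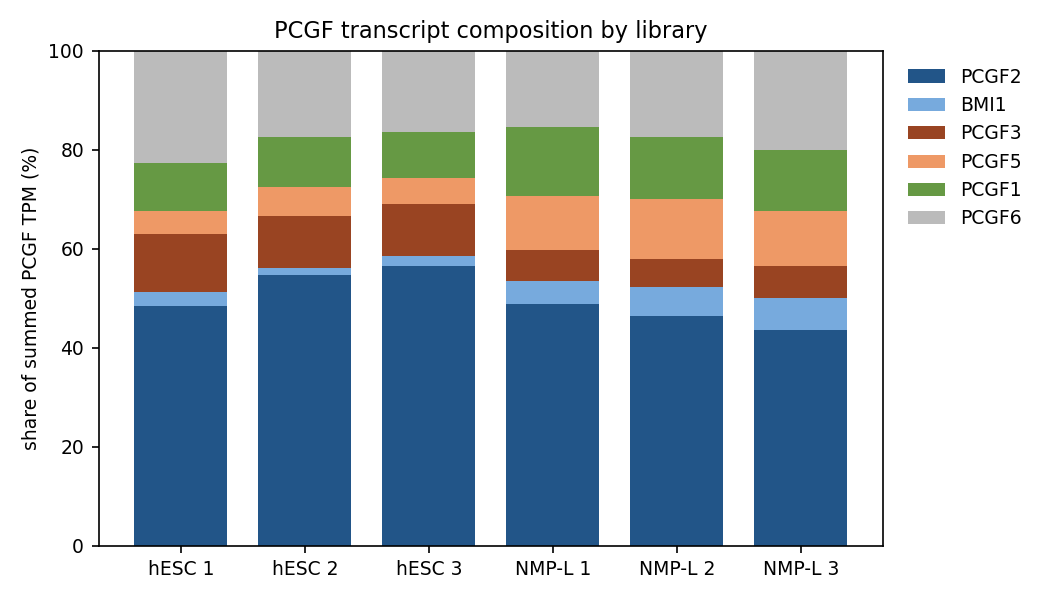
Share of the summed PCGF TPM (percent) held by each of the 6 PCGF genes, as 1 stacked bar for each library. PCGF2 holds the largest share in all 6 libraries, the shares of PCGF5, PCGF1 and BMI1 are higher in every NMP-L library, and that of PCGF3 is lower.

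Set against the catalytic subunits, which bind the PCGF proteins 1 to 1, the summed RING1 and RNF2 TPM was 47.2, 41.6 and 43.2 in hESCs and 39.4, 39.7 and 41.6 in NMP-L cells. These ranges overlapped. The summed RING1 and RNF2 TPM was 0.362 ± 0.037 (SD, n = 3) of the summed PCGF TPM in hESCs and 0.261 ± 0.014 in NMP-L cells. This ratio did not overlap and was chosen after the values were seen. These are transcript levels, and protein levels were not part of the data analysed here.

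In order of mean TPM, hESCs had KDM2B, PCGF2, RYBP, RNF2, PCGF6, RING1, PCGF3, PCGF1, PCGF5 and BMI1, and of the neighbours in this order RNF2 and PCGF6 overlapped. In NMP-L cells the order was PCGF2, KDM2B, RYBP, PCGF6, RNF2, PCGF1, PCGF5, RING1, PCGF3 and BMI1. Here KDM2B overlapped with RYBP, PCGF6 with RNF2, RNF2 with PCGF1, PCGF5 with RING1, and PCGF3 with BMI1. The spread between the highest and lowest mean was thus smaller in NMP-L cells, with 71.4 TPM for PCGF2 and 8.67 TPM for BMI1, against 98.7 TPM for KDM2B and 2.62 TPM for BMI1 in hESCs.

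**Figure D4:**
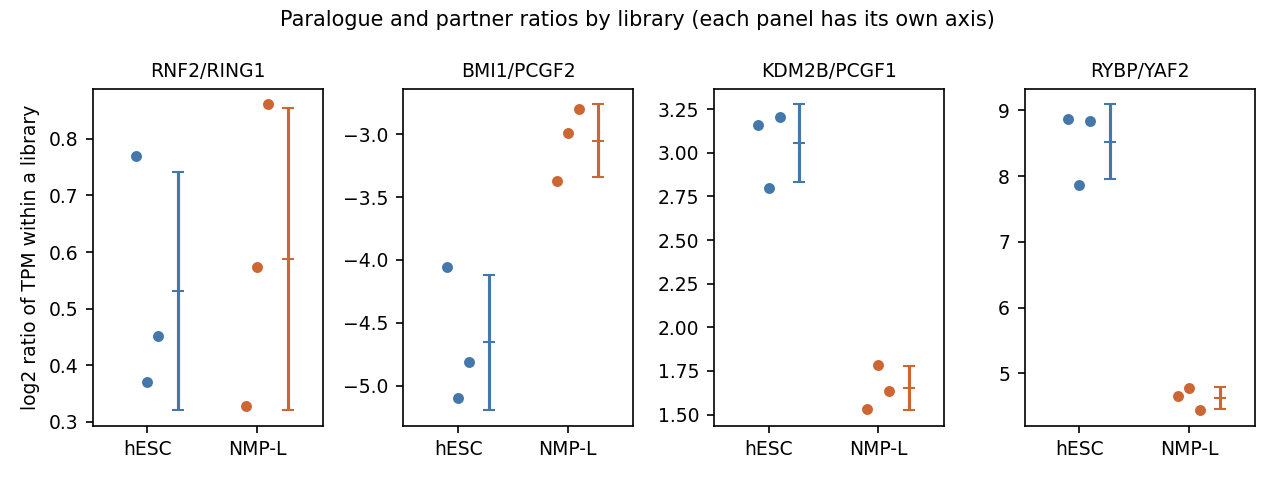
Log2 ratio of TPM for RNF2 to RING1, BMI1 to PCGF2, KDM2B to PCGF1 and RYBP to YAF2 in each library, with the mean and SD of each condition. Only the RNF2 to RING1 ratio overlaps between the conditions.

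The order of replicates was shared by some of the genes. RNF2, PCGF6, RYBP and BMI1, with GC contents from 36.0% to 42.0%, each had their highest CPM of a condition in hESC replicate 1 and NMP-L replicate 3, and RING1, the gene with the highest GC content, had its lowest in both. This order did not follow GC content over all 10 genes. PCGF3 (47.2% GC) also had its highest CPM in these libraries. KDM2B (57.8%) had its lowest in hESC replicate 2 but, like RING1, in NMP-L replicate 3. PCGF2 (57.5%) and PCGF1 (54.3%) had their lowest in hESC replicate 1 but in NMP-L replicate 2. For PCGF2 the margin was small (80.07 CPM against 80.17 in NMP-L replicate 3). RING1, KDM2B, PCGF2 and PCGF1 each had their highest NMP-L CPM in replicate 1. Whether GC content underlies these orders was not tested. With the GC and length correction RNF2 and PCGF2 passed the threshold as well, so that 8 of the 10 genes did, 5 higher and 3 lower. The share of all genes that passed with this correction is not given here, so the count is no result about the group. The corrected log2 fold changes were 1.47 for BMI1, 1.20 for PCGF5, 0.71 for PCGF1, 0.20 for RYBP, -0.63 for KDM2B and -0.61 for PCGF3. PCGF5, with the lowest GC content (34.3%), had its highest CPM in hESC replicate 2 and NMP-L replicate 2. In NMP-L cells the margin was small (12.64 CPM against 12.62 in replicate 3).

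The other genes of PRC1 were read from the same fit. Of 21 further subunits of variant PRC1, 6 rose (YAF2, BCORL1, MAX, E2F6, TFDP1 and CSNK2A2), 4 fell (BCOR, CBX3, AUTS2 and FBRSL1) and 11 did not pass, with a median log2 fold change of -0.11 (all genes tested, 29.1% higher and 26.7% lower, median 0.03). With GAPDH as the reference 18 of the 21 were higher and 1 lower, but with HPRT1 1 was higher and 8 lower. The median of all genes tested was 0.59 and -0.27 with these references, and the shares of all genes given here are those of TMM scaling. AUTS2, a partner of PCGF3 and PCGF5, fell by 1.16 ± 0.10 on the log2 scale (edgeR adjusted p = 1.5e-06). Of 11 further subunits of canonical PRC1, 7 rose, 3 fell and PHC3 did not pass, with a median of 0.79, beside the same background of 29.1% higher and 26.7% lower. With HPRT1 as the reference 4 of the 11 were higher and 3 lower. Among these PHC2 rose 3.11-fold, whereas CBX7 fell 3.88-fold and PHC1 3.47-fold, and the summed TPM was 571 to 660 in hESCs and 290 to 306 in NMP-L cells, to which PHC1 alone contributed 438 to 510 and 139 to 148. Of 6 genes of the enzymes that remove ubiquitin from H2A and their cofactors, only ASXL3 passed (1.62 ± 0.33 on the log2 scale), from at most 8 counts in hESCs, while 5 were higher with GAPDH as the reference.

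**Figure D5:**
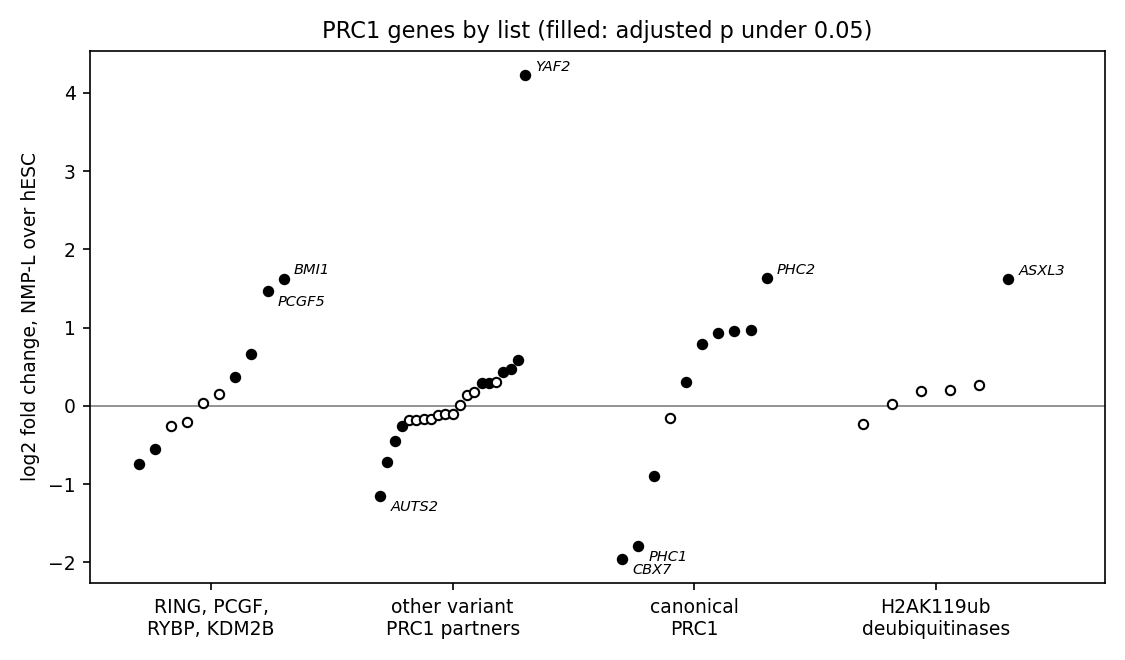
Log2 fold change (NMP-L over hESC) of the 10 described genes, the further variant and canonical PRC1 subunits, and the H2A deubiquitinase genes, with 1 canonical subunit not shown and filled points for an adjusted p under 0.05. Canonical subunits lie on both sides of 0, from CBX7 (-1.96) to PHC2 (1.64).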

How the data were processed

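Polyadenylated RNA of 3 hESC and 3 NMP-L libraries was read from 1 end, over 76 bp. The authors deposited expected counts per gene from RSEM, not scaled between libraries, and TPM values, scaled by transcript length to 1000000 per library. The submitters' processing notes name cutadapt 1.9.1, STAR 2.5.2a, RSEM 1.3.0, DESeq2 1.12.3 and hg19, and the annotation and strand setting are not given in the sources used here. RSEM divides reads shared between genes by estimation, which can affect overlapping genes.

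Counts were rounded and tested in edgeR 4.0.16 (R 4.3.3) by the quasi-likelihood test for condition, after filterByExpr (minimum count 10) and TMM scaling, with Benjamini-Hochberg adjustment over 15517 genes and a threshold of 0.05. The SE is the log2 fold change divided by the square root of F. Gene-level CPM was computed from the counts. The detection floor was 3 counts, or 0.130 to 0.154 CPM, and covers counting error only. The number of libraries limits the precision. Shares and ratios of TPM were compared by exact two-sided permutation tests over libraries. Their p-values are unadjusted unless stated. Benjamini-Hochberg adjustment over the 4 ratios raised an exact permutation p of 0.1 to 0.13. Loci and overlaps are from GENCODE release 44 on GRCh37, matched by symbol, and promoters from RefSeq (GRCh38.p14). GC content and length were matched for 23876 of 27672 genes by symbol and 1008 by an older symbol.

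The genes and lists were chosen with earlier results of these data known. The genes named are the 10 described, YAF2, KDM2A, BCOR, other PRC1 genes past the threshold and changed at least 2-fold, genes overlapping the 10, GAPDH, HPRT1, the cell type markers, and the 3 genes most like BMI1 and RNF2. MAX, E2F6, MGA, L3MBTL2 and the other PRC1 genes given by direction only were named beyond this rule, after their values were seen. Also chosen after the values were seen were the summed TPM of the PCGF genes, of RING1 with RNF2 and of PCGF3 with PCGF5. So were the joint shares of PCGF2 with BMI1 and of PCGF3 with PCGF5, the YAF2 share and the KDM2B to KDM2A ratio. Replicate numbers are shared between conditions but no source pairs them. The value of 1 canonical PRC1 gene is not reported here. The fit was tested on simulated data. Alternatives were RLE, upper-quartile and library-size scaling, GAPDH and HPRT1 as references, DESeq2 1.42.0, other filters, a replicate block, a GC and length correction (lowess span 0.3), and each library left out. Thinning to equal depth was added after seeing the data.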

Additional observations from a re-analysis of the deposited data

How the results depend on the processing

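Of 180 values (the 10 genes under 18 alternatives), 156 kept their direction and their side of the threshold, 9 lost the call and 8 gained one in the same direction, and 7 turned in direction, of which PCGF3 lost and RING1 gained a call relative to GAPDH. BMI1 and PCGF5 kept their direction and call under each of the 18, and the number of the 10 genes past the threshold lay between 5 and 8. Scaling mattered most. The median log2 fold change of all genes was 0.03 with TMM, 0.59 relative to GAPDH and -0.27 relative to HPRT1. Relative to GAPDH, 7 of the 10 genes were higher and 0 lower, RING1 was 0.30, RNF2 0.36 and PCGF3 0.0099 on the log2 scale, of the variant PRC1 subunits 18 were higher and 1 lower, and of the deubiquitinase genes 5 were higher. Relative to HPRT1, 2 of the 10 were higher and 4 lower, PCGF2 was -0.27 and PCGF6 -0.14, of the variant subunits 1 was higher and 8 lower, of the canonical subunits 4 were higher, and of the deubiquitinase genes 1 was lower. With expected counts in place of TPM the PCGF6 share differed by 0.39 percentage points (NMP-L minus hESC) in place of -1.26. DESeq2, RLE, upper-quartile and library-size scaling, both other filters and thinning to equal depth each called 6 of the 10. The share of all genes called under each alternative is not given here. These counts, and those with libraries left out or a replicate block, are thus no result about the group.

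With 1 library left out in turn, the log2 fold change of PCGF2 ran from -0.082 to 0.099, the RNF2 to RING1 log2 ratio differed by -0.080 to 0.19, the RNF2 share by -1.33 to 3.09 and the PCGF6 share by -2.51 to 0.71 percentage points, and 1 to 2 deubiquitinase genes were higher and 0 to 1 lower. Libraries with the same replicate number did not deviate together (correlations of -0.46, -0.04 and -0.17). With the replicate number as a replicate block 5 of the 10 genes passed, as RYBP had 0.37 (edgeR adjusted p = 0.051), and with 3 pairs no exact p under 0.25 is possible for shares and ratios. The cause of these differences was not tested. YAF2, ASXL3 and hESC values of BMI1 rest on low counts, which limits them at this depth.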

Other observations

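Over the 6 libraries, the log2 CPM of BMI1 was most like that of PHLDA1, KCNT2 and PIAS1 (Pearson r between 0.9995 and 0.9999), and 1538 genes had an r over 0.95 with it. The log2 CPM of RNF2 was most like that of ZNF449 (0.998), ARPP19 (0.993) and ARIH1 (0.993), and 184 genes had an r over 0.95 with it. The 6 points are 3 libraries of each condition with a shared depth scaling, and these values are descriptions with no p. No value among the 10 genes was tested as an outlier, since groups of 3 libraries are too small.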
